A study of Mus musculus with 12 samples.

Results

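Chaperones of the endoplasmic reticulum (ER) and targets of the unfolded protein response (UPR) were followed in the organ of Corti, which carries the hair cells of the cochlea, of mice that lack clarin-1, clarin-2 or both. The genes were taken by symbol from a list of 10, which are Hspa5, Hsp90b1, Calr, Pdia4, Dnajb9, Sdf2l1, Creld2, Manf, Herpud1 and Xbp1. The list was chosen with earlier results of these data known. All 10 were present among the 55348 genes of the count files, and all 10 were among the 19052 genes with enough counts to be tested. RNA was sequenced at postnatal day 21 (P21) in 4 genotypes with 3 libraries each. Wild-type mice carried no clarin mutation. Clrn1-/- mice carried a constitutive deletion of exon 4 of Clrn1, obtained by crossing mice with a floxed allele to mice with a PGK-driven Cre. Clrn2-/- mice were homozygous for the clarinet allele, a nonsense mutation of Clrn2. Clrn1-/-Clrn2-/- mice combined both alleles. Both alleles are constitutive, so that no genotype restricted the loss of a clarin to hair cells. Wild-type mice were bred separately from the mutants, so that breeding and genotype cannot be told apart in any comparison with wild-type. The single mutants are separate lines, and Clrn1-/-Clrn2-/- mice came from their cross. Whether these mice shared litters is not stated, so that line and genotype cannot be told apart between mutants either. The libraries of a genotype are separate samples by their labels, but the sources used here do not state whether tissue of several animals was pooled in a library, and p-values measure the spread between these libraries.

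The ER is where secreted and membrane proteins fold, with the help of chaperones such as BiP, the product of Hspa5. When unfolded protein accumulates there, the sensors IRE1, PERK and ATF6 are activated. IRE1 splices the Xbp1 mRNA into a form that encodes an active transcription factor, PERK slows translation and raises ATF4, and cleaved ATF6 enters the nucleus, after which chaperones, oxidoreductases and degradation factors are transcribed. Hair cells make large membrane proteins for their stereocilia and synapses, and supporting cells secrete the tectorial membrane, so that both rely on this folding machinery.

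Counts on genes ranged from 30008679 to 41049302 per library. The level of Clrn1 was 25, 23.8 and 28.6 CPM (counts scaled to the size of the library) in wild-type, 3.04, 2.69 and 2.75 in Clrn1-/-, 31.5, 25.8 and 29.1 in Clrn2-/-, and 1.77, 2.44 and 2.71 in Clrn1-/-Clrn2-/- libraries. These levels follow the labels. Clrn2 stood at 3.03, 1.89 and 3.24 CPM in wild-type, at 0.854, 0.854 and 1.04 in Clrn1-/-, at 1.26, 1.38 and 1.04 in Clrn2-/- and at 1.18, 0.921 and 1.13 in Clrn1-/-Clrn2-/- libraries, so that its transcript was low also in Clrn1-/- mice and does not tell the single mutants apart. Mice with and without clarin-2 are therefore named by their Clrn2 allele and not by this level. Of 15 hair cell and 14 supporting cell markers, none was at 0 in all libraries, with summed levels of 2628 to 4271 CPM and 3607 to 7864 CPM. No marker of the other cell types listed, such as skeletal muscle, was at 0 in all libraries either. Detection of these markers therefore does not test the tissue label. In bulk tissue, fewer cells of a type and less RNA per cell cannot be told apart.

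The ER stress response element (ERSE), spelled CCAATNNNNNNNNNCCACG, is the classical promoter element of this gene set, in which NF-Y recognises the first part and ATF6 the last. RefSeq promoters of 300 bases, from 250 bases before to 50 bases after the start of the gene on GRCm38.p6, were found for 9 of the 10 genes, all but Manf, and were searched on both strands. An exact ERSE was present in 4 of the 9, compared with 37 of all 27025 genes with a promoter (0.137%). Hspa5 held a match from -65 to -47 relative to the start, Calr from -162 to -144 and Creld2 from -126 to -108, the last 2 on the opposite strand. Hsp90b1 held 2 matches, from -212 to -194 and, on the opposite strand, from -107 to -89. With 1 mismatch allowed, which was added after the data were seen, Pdia4 and Herpud1 also held a match, making 6 of 9 compared with 1.72% of all genes. The related element ERSE-II, spelled ATTGGNCCACG, was present in Herpud1 alone of the 9, from -52 to -42, compared with 0.0444% of all genes. Its first bases are the reverse complement of the first part of the ERSE, and its match shares no base with the inexact ERSE of the same promoter. The element TGACGTGG, known as UPRE, was found in 0 of the 9 and in 0.714% of all genes. A match describes the letters of these windows and not a bound site. The 5 promoters with an exact match to either element are shown because they display the element in its different positions and orientations. Capitals mark the matches, which on the opposite strand appear as the reverse complement of the element. All are printed in the direction of transcription. Hspa5 is at chr2:34772020-34772048 (plus strand, restricted to the match and its neighbours because 120 bases of the window, the match among them, lie in an exon of the gene's Gencode model), Hsp90b1 at chr10:86705510-86705694 (minus strand), Calr at chr8:84846935-84847181 (minus strand), Creld2 at chr15:88819396-88819645 (plus strand) and Herpud1 at chr8:94386179-94386428 (plus strand).
Hspa5: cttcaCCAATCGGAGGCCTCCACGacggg
Hsp90b1: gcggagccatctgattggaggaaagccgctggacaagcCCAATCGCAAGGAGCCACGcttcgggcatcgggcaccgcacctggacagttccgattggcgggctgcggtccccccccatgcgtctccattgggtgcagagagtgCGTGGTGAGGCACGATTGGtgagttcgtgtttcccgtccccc
Calr: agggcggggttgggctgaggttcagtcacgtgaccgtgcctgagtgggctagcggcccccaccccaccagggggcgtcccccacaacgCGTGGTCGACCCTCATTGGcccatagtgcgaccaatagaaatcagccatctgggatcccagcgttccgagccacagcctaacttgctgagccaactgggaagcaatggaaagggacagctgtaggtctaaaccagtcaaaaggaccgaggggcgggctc
Creld2: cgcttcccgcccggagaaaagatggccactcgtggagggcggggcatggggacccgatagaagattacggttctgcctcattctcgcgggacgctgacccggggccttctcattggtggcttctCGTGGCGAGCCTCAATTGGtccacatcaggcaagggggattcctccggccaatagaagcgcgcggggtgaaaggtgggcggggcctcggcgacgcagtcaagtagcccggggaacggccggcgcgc
Herpud1: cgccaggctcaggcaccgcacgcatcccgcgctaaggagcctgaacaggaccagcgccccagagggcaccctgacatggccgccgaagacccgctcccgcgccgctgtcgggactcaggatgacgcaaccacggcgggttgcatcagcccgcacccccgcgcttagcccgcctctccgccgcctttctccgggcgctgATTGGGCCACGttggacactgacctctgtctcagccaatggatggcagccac

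Levels were compared between genes as CPM per kilobase of exon. The length is the union of all exons of a gene's model, so that places depend on that model. The model of Manf shares exon bases with neighbouring genes, and its place may reflect this length. In wild-type mice Calr, a lectin chaperone that also buffers calcium, was the most abundant with 160 ± 13.7 CPM per kilobase (SD, n = 3). Hsp90b1, the ER form of the HSP90 family, followed with 103 ± 2.87 and Hspa5, the HSP70 chaperone BiP, with 102 ± 10.4 CPM per kilobase, and these neighbours did not differ beyond their spread. Herpud1 reached 54.5 ± 3.54, Pdia4 35.2 ± 1.85 and Xbp1 33.4 ± 1.21 CPM per kilobase, and Pdia4 and Xbp1 overlapped between libraries. Creld2 (24 ± 1.27), Dnajb9 (22.7 ± 0.869), Manf (18.1 ± 2.14) and Sdf2l1 (17.3 ± 0.427) were the lowest, with overlap between the first and last pairs. The first 6 places of this order held the same genes in all 4 genotypes, except that Hspa5 and Hsp90b1 changed places. Hspa5 stood above Hsp90b1 in Clrn2-/- mice, with 163 ± 20.8 against 117 ± 6.40 CPM per kilobase, and in Clrn1-/-Clrn2-/- mice, with 179 ± 15.9 against 130 ± 3.00, without overlap between their libraries. Sdf2l1 was the lowest of the 10 in wild-type and the seventh in Clrn2-/- mice, where it reached 32.5 ± 4.72 CPM per kilobase.

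Among the general chaperones Hspa5, Hsp90b1 and Calr, Hspa5 differed most plainly between mice with and without clarin-2. Hspa5 measured 415, 483 and 400 CPM in wild-type, 455, 436 and 464 in Clrn1-/-, 656, 789 and 622 in Clrn2-/-, and 815, 777 and 685 CPM in Clrn1-/-Clrn2-/- libraries. All 6 libraries homozygous for the clarinet allele lay above the 6 without it. Against wild-type, Hspa5 was 1.59-fold higher in Clrn2-/- (log2 fold change 0.67 ± 0.0878 SE, adjusted p = 0.000123, edgeR's quasi-likelihood test with Benjamini-Hochberg adjustment over all genes tested, as throughout) and 1.75-fold higher in Clrn1-/-Clrn2-/- mice (0.81 ± 0.0879, adjusted p = 2.73e-06). Hsp90b1 measured 410, 427 and 405 CPM in wild-type, 441, 401 and 414 in Clrn1-/-, 479, 491 and 441 in Clrn2-/-, and 537, 526 and 513 CPM in Clrn1-/-Clrn2-/- libraries. Its change was smaller, at 1.14-fold in Clrn2-/- (adjusted p = 0.0222) and 1.27-fold in Clrn1-/-Clrn2-/- mice (adjusted p = 5.24e-05). The first of these calls was lost in 5 of 14 alternative analyses, among them unstranded counts (log2 fold change 0.14, adjusted p = 0.0899), and Hsp90b1 shares 415 exon bases with the pseudogene 1810014B01Rik on the other strand. Calr measured 454, 505 and 427 CPM in wild-type, 504, 458 and 479 in Clrn1-/-, 593, 614 and 571 in Clrn2-/-, and 627, 593 and 564 CPM in Clrn1-/-Clrn2-/- libraries. Both genotypes without clarin-2 stood at a similar height, 1.28-fold (adjusted p = 0.00103) and 1.29-fold (adjusted p = 0.000213) above wild-type.

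Pdia4 encodes a protein disulfide isomerase, which forms and rearranges disulfide bonds in the ER. It measured 86.5, 87.4 and 79.3 CPM in wild-type, 87.0, 84.9 and 91.7 in Clrn1-/-, 108, 128 and 108 in Clrn2-/-, and 145, 145 and 126 CPM in Clrn1-/-Clrn2-/- libraries. The increase was 1.36-fold in Clrn2-/- (log2 fold change 0.44 ± 0.0687, adjusted p = 0.000462) and 1.64-fold in Clrn1-/-Clrn2-/- mice (0.72 ± 0.0687, adjusted p = 7.71e-07).

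Among the cofactors of BiP, Sdf2l1 showed the largest change of all 10 genes. Its product binds ER J-domain proteins and helps to keep client proteins soluble. It measured 19.2, 19.6 and 18.6 CPM in wild-type, 20.6, 18.1 and 19.9 in Clrn1-/-, 35.3, 41.5 and 31.1 in Clrn2-/-, and 45.2, 38.1 and 31.7 CPM in Clrn1-/-Clrn2-/- libraries. The lowest library with the clarinet allele (31.1 CPM) was above the highest without it (20.6 CPM). The increase was 1.88-fold in Clrn2-/- (0.91 ± 0.113, adjusted p = 7.96e-05) and 2.00-fold in Clrn1-/-Clrn2-/- mice (log2 fold change 1.00 ± 0.113, adjusted p = 4.3e-06). Dnajb9 encodes the J-domain co-chaperone ERdj4, which binds BiP and restrains IRE1. It measured 55.6, 58.0 and 60.0 CPM in wild-type, 53.0, 54.4 and 57.7 in Clrn1-/-, 61.3, 71.8 and 62.4 in Clrn2-/-, and 75.9, 74.3 and 69.5 CPM in Clrn1-/-Clrn2-/- libraries. Although the Clrn2-/- libraries lay above wild-type, the difference of 0.17 ± 0.0598 on the log2 scale did not pass the test (adjusted p = 0.0712), whereas that of Clrn1-/-Clrn2-/- mice did (0.34 ± 0.0596, adjusted p = 0.000304).

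Creld2 and Manf encode small ER proteins that are induced by ER stress. Manf is also secreted and is known as a neurotrophic factor, and Creld2 carries EGF-like repeats. Manf measured 62.7, 71.9 and 57.0 CPM in wild-type, 60.3, 54.5 and 56.8 in Clrn1-/-, 88.8, 104 and 73.1 in Clrn2-/-, and 118, 102 and 86.3 CPM in Clrn1-/-Clrn2-/- libraries. It was 1.39-fold higher in Clrn2-/- (0.47 ± 0.119, adjusted p = 0.0144) and 1.6-fold higher in Clrn1-/-Clrn2-/- mice (0.68 ± 0.119, adjusted p = 0.000296), and the first call was lost without Clrn2-/- replicate 2 (0.34, adjusted p = 0.0786). Manf shares 166 exon bases with the antisense gene 4930524O07Rik and 146 with Dcaf1, both on the other strand, and unstranded counts kept its call in Clrn2-/- mice. Creld2 measured 33.8, 33.9 and 30.8 CPM in wild-type, 28.2, 27.6 and 27.2 in Clrn1-/-, 38.6, 45.5 and 33.5 in Clrn2-/-, and 59.1, 54.5 and 43.7 CPM in Clrn1-/-Clrn2-/- libraries. The Clrn1-/- libraries were the lowest and the Clrn1-/-Clrn2-/- libraries mostly the highest, and wild-type and Clrn2-/- overlapped. The value of 0.26 ± 0.104 in Clrn2-/- mice did not pass the test (adjusted p = 0.12), while Clrn1-/-Clrn2-/- mice were 1.59-fold higher (0.67 ± 0.104, adjusted p = 8.84e-05).

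Herpud1 encodes a membrane protein of the complex that returns misfolded proteins to the cytosol for degradation. It measured 122, 123 and 137 CPM in wild-type, 101, 115 and 115 in Clrn1-/-, 142, 156 and 129 in Clrn2-/-, and 175, 161 and 148 CPM in Clrn1-/-Clrn2-/- libraries. Wild-type and Clrn2-/- libraries overlapped, and their difference did not pass the test (0.16 ± 0.0753, adjusted p = 0.17). Clrn1-/-Clrn2-/- mice were 1.27-fold higher than wild-type (0.34 ± 0.0752, adjusted p = 0.00189). Xbp1 measured 108, 113 and 105 CPM in wild-type, 112, 109 and 106 in Clrn1-/-, 133, 151 and 128 in Clrn2-/-, and 160, 153 and 131 CPM in Clrn1-/-Clrn2-/- libraries. All 6 libraries with the clarinet allele lay above the 6 without it, by 1.27-fold in Clrn2-/- (adjusted p = 0.0032) and 1.36-fold in Clrn1-/-Clrn2-/- mice (adjusted p = 8.48e-05), both against wild-type. Counts per gene do not separate the spliced from the unspliced Xbp1 mRNA.

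**Figure D1:**
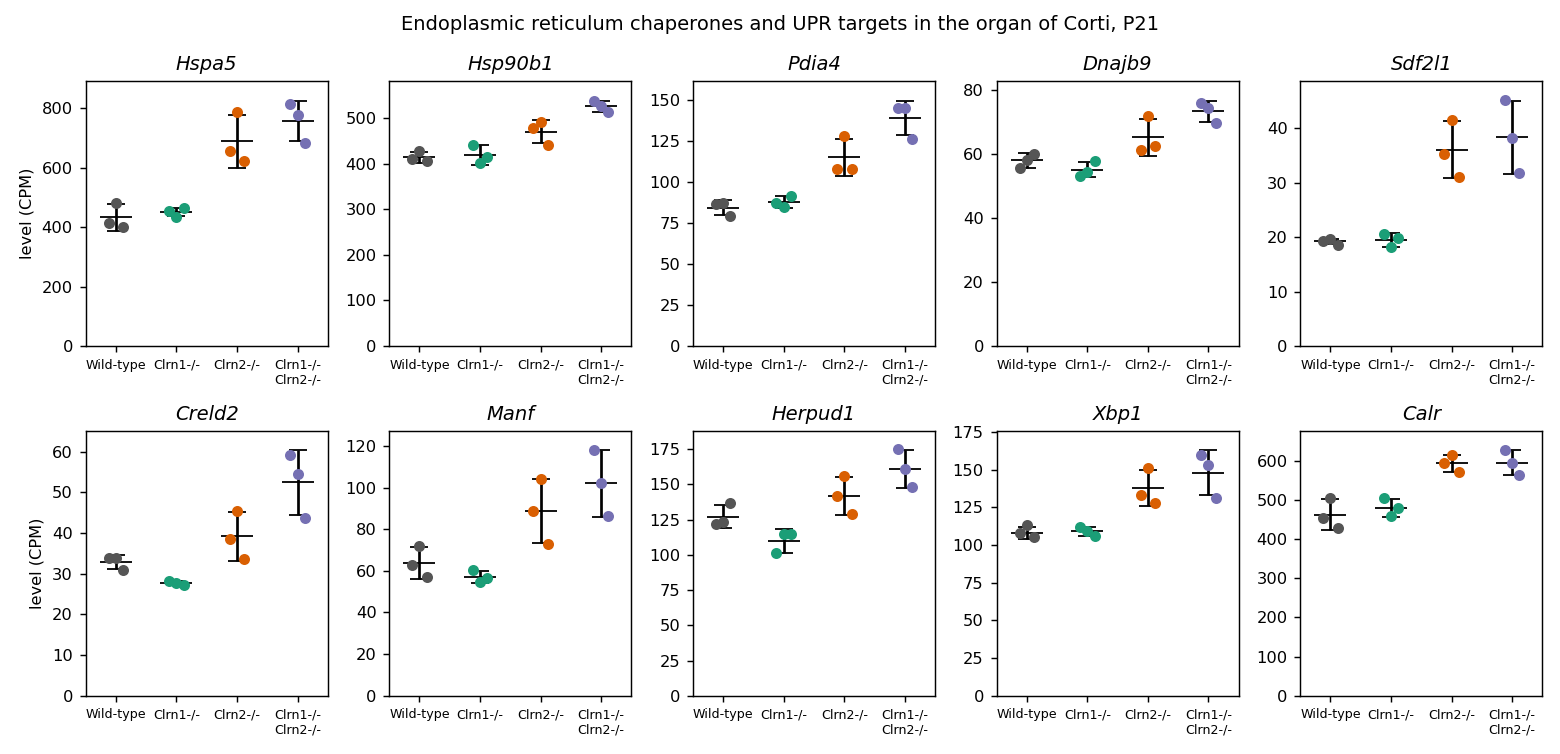
Level in CPM (y axis, from 0) of each of the 10 genes in the 4 genotypes (x axis), with 1 point per library and bars for the mean ± SD of 3 libraries. For Hspa5 the Clrn2-/- and Clrn1-/-Clrn2-/- libraries lie between 622 and 815 CPM and the others between 400 and 483 CPM, whereas for Creld2 and Herpud1 the Clrn1-/- libraries lie below wild-type and the Clrn2-/- libraries overlap it.

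Counted over the set, 7 of the 10 genes rose in Clrn2-/- mice at an adjusted p of at most 0.05, compared with 7.14% of all genes tested that rose, and none fell. Hspa5 and Sdf2l1 also passed 1.5-fold, compared with 1.24% of all genes. In Clrn1-/-Clrn2-/- mice all 10 rose (19.1% of all genes) and 5 passed 1.5-fold (5.88% of all genes), namely Hspa5, Pdia4, Sdf2l1, Creld2 and Manf. The median log2 fold change of the 10 was 0.35 in Clrn2-/- and 0.56 in Clrn1-/-Clrn2-/- mice, where that of all genes tested was -0.002 and 0.001. The 3 Clrn2-/- libraries lay above the 3 wild-type libraries for 8 of the 10 genes (14.6% of all genes), and the 3 Clrn1-/-Clrn2-/- libraries did so for 10 of 10 (25.0% of all genes). Both comparisons use the same wild-type libraries. Since the list was chosen with earlier results of these data known, its shares beside those of all genes are a description and not a test. Clrn2-/- replicate 2 was the highest of its genotype for all 10 genes. Without it, 5 of the 10 passed the adjusted p in Clrn2-/- mice, with Hsp90b1 and Manf lost, and 1 passed 1.5-fold. In Clrn1-/-Clrn2-/- mice all 10 calls held in each of 14 alternatives, although 3 rather than 5 passed 1.5-fold without Clrn1-/-Clrn2-/- replicate 1.

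**Figure D2:**
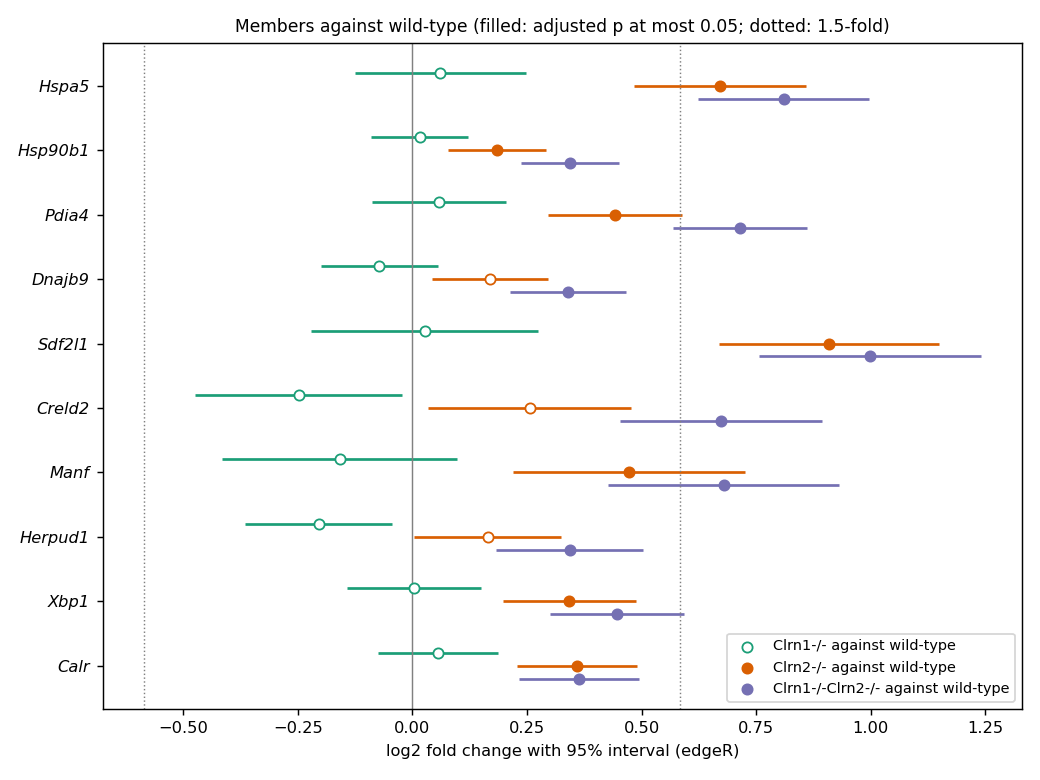
Log2 fold change against wild-type (x axis, edgeR) of the 10 genes (y axis) in the 3 mutants, with lines for the 95% interval, filled points past the adjusted p and dotted lines at 1.5-fold. The Clrn1-/- points lie between -0.25 and 0.06 and are all open, 7 of 10 Clrn2-/- points are filled, and all Clrn1-/-Clrn2-/- points are filled, up to 1.00 for Sdf2l1.

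In Clrn1-/- mice 0 of the 10 genes passed the adjusted p in edgeR, where 26.9% of all genes did in either direction. Creld2 and Herpud1 had an unadjusted p below the threshold (0.0332 and 0.0161). Log2 fold changes ran from -0.25 for Creld2 to 0.06 for Hspa5, with a median of 0.01. The 95% interval was -0.12 to 0.25 for Hspa5, -0.22 to 0.28 for Sdf2l1 and -0.14 to 0.15 for Xbp1, which leaves out the sizes measured in Clrn2-/- mice for Hspa5, Sdf2l1 and Xbp1. Creld2 (-0.25 ± 0.106, adjusted p = 0.0974) and Herpud1 (-0.20 ± 0.0757, adjusted p = 0.0569) were the lowest, and all 3 Clrn1-/- libraries lay below all 3 wild-type libraries for both. The libraries of these 2 genotypes deviated together by replicate number, and with the replicate block Creld2 passed (-0.25, adjusted p = 0.0328), making 1 gene. With the block and these 2 genotypes alone, an analysis added after the data were seen, Creld2 (adjusted p = 0.0099) and Herpud1 (adjusted p = 0.00981) both passed as lower. DESeq2 passed Herpud1 alone (adjusted p = 0.0374).

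The single mutants were also compared directly, with no wild-type library involved beyond the shared estimate of spread. All 10 genes were lower in Clrn1-/- than in Clrn2-/- mice (8.99% of all genes), with Hspa5, Sdf2l1 and Manf past 1.5-fold (2.34% of all genes). The differences on the log2 scale ran from -0.88 for Sdf2l1 to -0.17 for Hsp90b1, with a median of -0.38. Hsp90b1 was the gene whose libraries overlapped, as the highest Clrn1-/- library (441 CPM) reached the lowest Clrn2-/- library, and for the other 9 the Clrn2-/- libraries lay above the Clrn1-/- libraries (17.3% of all genes). Without Clrn2-/- replicate 2, 8 of the 10 passed and 1 passed 1.5-fold.

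The loss of clarin-2 was measured a second time in mice that also lacked clarin-1, by comparing Clrn1-/-Clrn2-/- with Clrn1-/- mice, a comparison that has no library in common with that of Clrn2-/- and wild-type mice. All 10 genes were higher in Clrn1-/-Clrn2-/- mice (15.7% of all genes) and 5 passed 1.5-fold (4.62% of all genes). The libraries did not overlap for any of the 10 (23.6% of all genes). The largest differences were 0.97 ± 0.114 for Sdf2l1 (adjusted p = 9.85e-06), 0.92 ± 0.105 for Creld2 (adjusted p = 7.73e-06) and 0.84 ± 0.120 for Manf (adjusted p = 6.52e-05), followed by Hspa5 (0.75 ± 0.0879, adjusted p = 1.02e-05) and Pdia4 (0.66 ± 0.0686, adjusted p = 3.33e-06). The smallest was 0.31 ± 0.0615 for Calr. Of the 10 genes, 7 were higher without clarin-2 in both comparisons, compared with 2.92% of all genes tested. Hspa5 and Sdf2l1 had nearly the same difference in both, at 0.67 and 0.75 for Hspa5 and at 0.91 and 0.97 for Sdf2l1. Creld2, by contrast, stood at 0.26 with clarin-1 present and 0.92 without it.

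**Figure D3:**
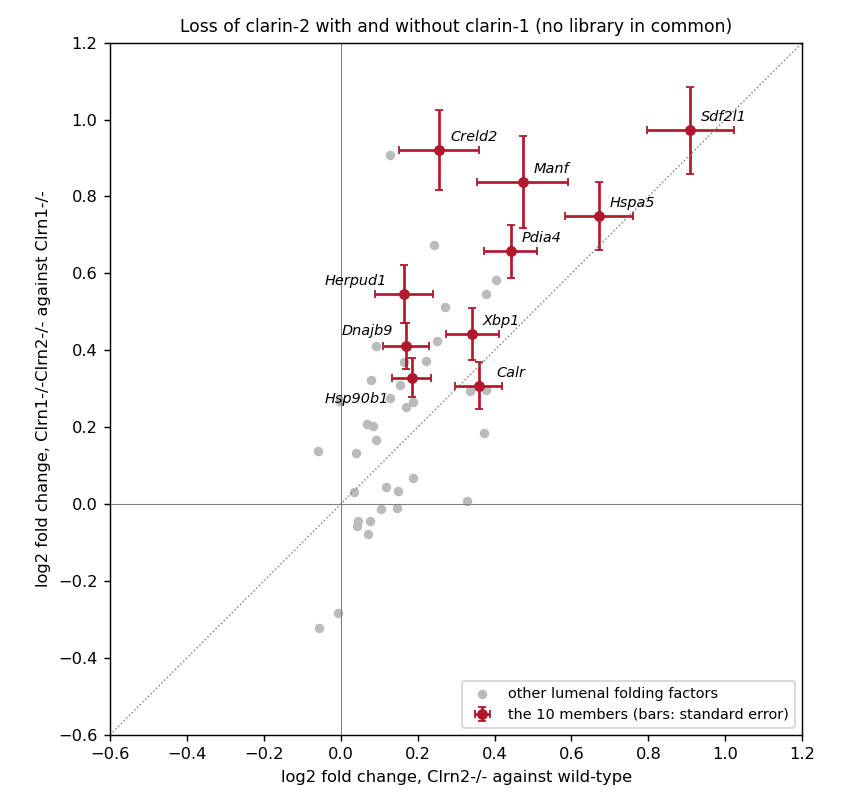
Log2 fold change of clarin-2 loss with clarin-1 present (x axis, Clrn2-/- against wild-type) and absent (y axis, Clrn1-/-Clrn2-/- against Clrn1-/-), with red points and standard errors for the 10 genes, grey points for 36 other lumenal folding factors and a dotted line where both are equal. Hspa5, Sdf2l1 and Calr lie near the line and Creld2 (0.26 and 0.92) lies farthest above it among the 10, with Sil1 (0.13 and 0.91) among the grey points farther still.

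Whether the loss of both clarins differed from the sum of the single losses was tested with the interaction term, in which a positive value means that Clrn1-/-Clrn2-/- mice lay above that sum on the log2 scale. Creld2 (0.67 ± 0.148, adjusted p = 0.00569) and Herpud1 (0.38 ± 0.107, adjusted p = 0.0212) passed, or 2 of 10 compared with 9.32% of all genes, and Creld2 passed 1.5-fold (3.58% of all genes). These were the genes with the lowest values in Clrn1-/- mice. The Creld2 call held in all 19 alternatives, and that of Herpud1 was lost in 4, without Clrn1-/- replicate 1, Clrn2-/- replicate 3 or Clrn1-/-Clrn2-/- replicate 1 or 2, which leaves 1 gene. Without Clrn2-/- replicate 2, 4 genes passed. The pass of Creld2 at 1.5-fold was lost without Clrn2-/- replicate 3 or Clrn1-/-Clrn2-/- replicate 1, leaving 0. The remaining 8 ran from -0.05 for Calr to 0.36 for Manf and did not pass. For Sdf2l1 the interval of -0.28 to 0.40 and for Hspa5 that of -0.18 to 0.34 leave room for an interaction of either sign.

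Against Clrn2-/- mice, Clrn1-/-Clrn2-/- mice had 4 genes that were higher (14.4% of all genes) and 0 past 1.5-fold (3.67% of all genes). They were Creld2 (0.42 ± 0.103, adjusted p = 0.00683), Pdia4 (0.27 ± 0.0680, adjusted p = 0.00724), Dnajb9 (0.17 ± 0.0595, adjusted p = 0.0457) and Hsp90b1 (0.16 ± 0.0501, adjusted p = 0.0262). The Dnajb9 call was lost in 8 of 14 alternatives and the Hsp90b1 call in 4, and the count fell to 1 without Clrn1-/-Clrn2-/- replicate 1 or 2 and to 2 without Clrn1-/-Clrn2-/- replicate 3 or Clrn2-/- replicate 3. All 10 values were above 0, down to 0.005 for Calr, whose interval was -0.13 to 0.14.

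The 10 genes also varied together among libraries of one genotype. As sums, they took 1719 to 1921 CPM in wild-type, 1758 to 1862 in Clrn1-/-, 2200 to 2592 in Clrn2-/-, and 2399 to 2756 CPM in Clrn1-/-Clrn2-/- libraries. Clrn2-/- replicate 2 was the highest of its genotype for 10 of 10 genes and replicate 3 the lowest for 8. Clrn1-/-Clrn2-/- replicate 1 was the highest for 9 and replicate 3 the lowest for 10 of 10. After the mean of each genotype was taken off, the 45 pairs of genes had a median Pearson correlation of 0.728 over 12 libraries, from 0.0191 to 0.964, where all values share the library and its scaling. The deviations of Manf (0.955), Creld2 (0.945), Hspa5 (0.941), Sdf2l1 (0.939) and Xbp1 (0.935) followed the mean of the other 9 genes closely. Herpud1 (0.518) and Dnajb9 (0.663) followed it least, and in wild-type their highest library was replicate 3, in which Manf, Hspa5 and Calr were lowest. The widest relative spread was that of Sdf2l1 in Clrn1-/-Clrn2-/- libraries, with a coefficient of variation of 17.5%. Sdf2l1 was the narrowest of the 10 genes in wild-type (2.47%, against 11.8% for Manf). In Clrn2-/- libraries Manf (17.4%) and Creld2 (15.4%) were wider than Sdf2l1 (14.5%). These are values of 3 libraries each, in which counting error was not separated.

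**Figure D4:**
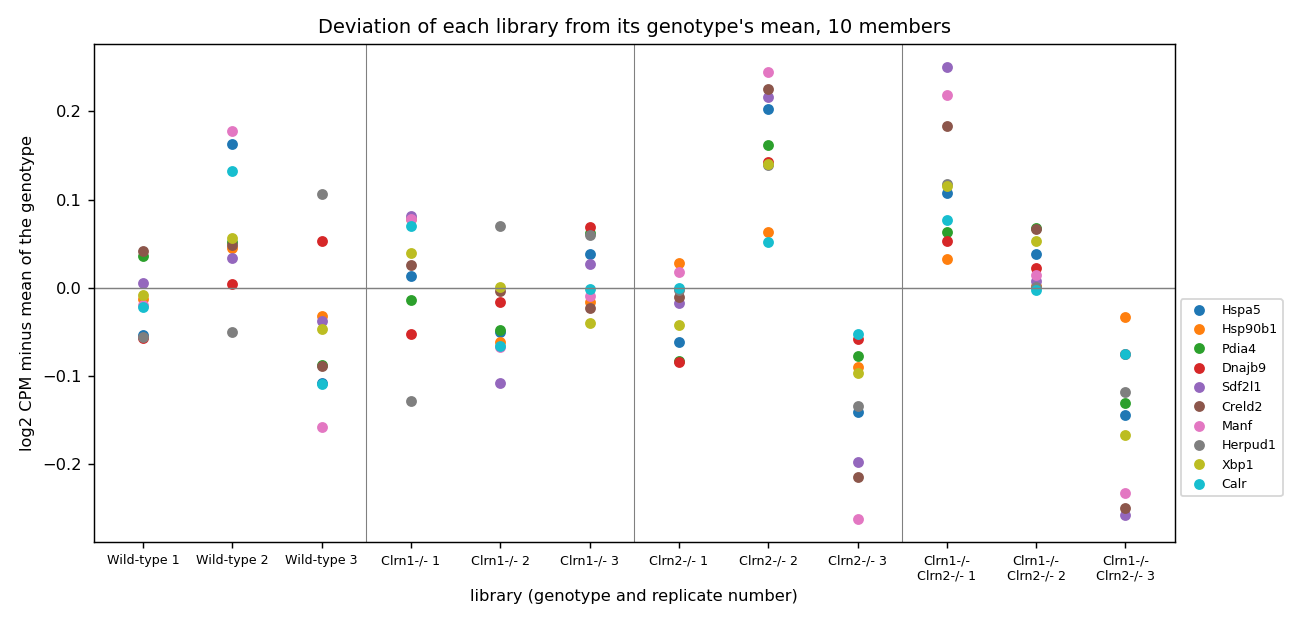
Deviation of each library from the mean of its genotype (y axis, log2 CPM) for the 10 genes (colours) in the 12 libraries (x axis). All 10 points of Clrn2-/- replicate 2 lie above 0 and all 10 of Clrn1-/-Clrn2-/- replicate 3 below 0, with Sdf2l1, Creld2 and Manf widest, while the Clrn1-/- points lie between -0.13 and 0.08.

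Likeness was taken over the 12 libraries for 12443 other genes whose mean reached 5 CPM, as a description. Those whose log2 CPM was most like the mean of the 10 were Hyou1 (Pearson correlation 0.99), Pdia6 (0.988), Pdia3 (0.983), Dnajc3 (0.969), Hspa1b (0.963), Rpn1 (0.955), Hspa1a (0.948), Sec61b (0.942), Tmed3 (0.935) and Cnpy2 (0.935). Of these 10, 9 stood on one of the pathway lists, which held 181 of the 12443 genes. Hyou1, an ER chaperone that exchanges nucleotide on BiP, measured 144, 148 and 149 CPM in wild-type, 143, 145 and 147 in Clrn1-/-, 173, 185 and 166 in Clrn2-/-, and 205, 198 and 181 CPM in Clrn1-/-Clrn2-/- libraries. Pdia6, a further disulfide isomerase, measured 117, 123 and 113, then 123, 117 and 118, then 155, 163 and 141, and last 182, 177 and 164 CPM in the same order of genotypes. For both, all 6 libraries with the clarinet allele lay above the 6 without it. On deviations from the genotype means the 10 most alike were Pdia6 (0.935), Tmem167, Cnpy4, Hyou1, Psmb8, Ly86, Creb1, Dnajc3, Gfpt1 and Gm8355 (0.882), of which 4 were on the lists. Pdia6, Hyou1 and Dnajc3 were thus named by both measures.

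Other genes of the ER were counted on lists. Of all 19052 genes tested, 2593 rose and 2537 fell when clarin-1 was lost, 1360 rose and 1347 fell when clarin-2 was lost, and 3632 rose and 3415 fell when both were. Of 36 other lumenal folding factors, 4 rose and 3 fell in Clrn1-/-, 13 rose and 0 fell in Clrn2-/-, and 23 rose and 2 fell in Clrn1-/-Clrn2-/- mice. Pdia6 (0.38 ± 0.0553, adjusted p = 0.000276), the collagen chaperone Serpinh1 (0.38 ± 0.0922, adjusted p = 0.0119) and Erp29 (0.37 ± 0.0391, adjusted p = 1.62e-05) led in Clrn2-/- mice. In Clrn1-/-Clrn2-/- mice Pdia5 (0.67 ± 0.179, adjusted p = 0.00755) and the prolyl isomerase Fkbp9 (0.62 ± 0.0561, adjusted p = 4.13e-07) were ahead of Pdia6 (0.57 ± 0.0553, adjusted p = 8.61e-07). In Clrn1-/- mice Erp29 rose (0.33, adjusted p = 1.57e-05), whereas Sil1, which exchanges nucleotide on BiP, fell by 0.39 (adjusted p = 1.58e-05). The count of 4 that rose in Clrn1-/- mice was 12 when libraries were scaled by their size only. For each of the lists of ER and stress genes, the count that rose in Clrn1-/-Clrn2-/- mice stayed within 1.5 times in all 14 alternatives, while those of the single mutants often did not.

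Of 25 genes of translocation and signal peptide cleavage, 4 rose and 4 fell in Clrn1-/-, 10 rose and 0 fell in Clrn2-/-, and 14 rose and 1 fell in Clrn1-/-Clrn2-/- mice. The rising count ran from 3 to 9 over the alternatives in Clrn1-/- mice and from 6 to 11 in Clrn2-/- mice, where it was 6 without Clrn2-/- replicate 2. Sec61a1, the pore of the translocon, rose in all 3, by 0.27 (adjusted p = 0.000297), 0.36 (adjusted p = 7.66e-05) and 0.72 (adjusted p = 7.67e-09) on the log2 scale. The largest change of this list against wild-type was a fall, that of Srp9 in Clrn1-/- mice (-1.067 ± 0.0649, adjusted p = 1.24e-08). Of 20 genes of the lectin cycle and glycosylation, 2 rose and 1 fell, 5 rose and 0 fell, and 12 rose and 0 fell in the same order. The first count of 2 ran from 0 to 4 and moved by over 1.5 times in 10 of 15 alternatives, each library left out among them. The count of 5 ran from 2 to 8 and moved in 7 of 14, to 2 without wild-type replicate 1 or Clrn2-/- replicate 2 or 3 and to 3 without wild-type replicate 3. Ostc, a subunit of the oligosaccharyltransferase, rose by 0.19 in Clrn2-/- (adjusted p = 0.0106) and 0.47 in Clrn1-/-Clrn2-/- mice (adjusted p = 1.1e-06). The gene that fell in Clrn1-/- mice was Dad1 (-0.23, adjusted p = 0.00544). Of 30 genes of ER-associated degradation, 5 rose and 4 fell, 7 rose and 1 fell, and 15 rose and 4 fell. The count of 5 ran from 1 to 9 and moved in 7 of 15 alternatives, falling to between 1 and 3 with any library left out. The count of 7 ran from 4 to 9 and was 4 without wild-type replicate 2 or 3 or Clrn2-/- replicate 2. Derl3, a channel component of that pathway, rose by 0.71 ± 0.120 in Clrn2-/- (adjusted p = 0.00093) and 1.26 ± 0.117 in Clrn1-/-Clrn2-/- mice (adjusted p = 5.44e-07), from a wild-type mean of 3.29 ± 0.489 CPM (SD, n = 3). Ube2j1 fell in Clrn2-/- (-0.171, adjusted p = 0.00913) and Clrn1-/-Clrn2-/- mice (-0.308, adjusted p = 1.7e-05). In Clrn1-/- mice Ube2j2 (-0.414, adjusted p = 6.89e-05) and Ngly1 (-0.294, adjusted p = 0.000304) fell, and Ngly1 also fell in Clrn1-/-Clrn2-/- mice (-0.283, adjusted p = 0.000217).

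Of 12 sensors and transducers tested, 4 rose when clarin-1 was lost, 1 when clarin-2 was lost, and 7 rose and 2 fell when both were. The count of 4 ran from 2 to 8 over the alternatives, falling to 2 when Clrn1-/- replicate 1 or wild-type replicate 3 was left out. The count of 1 ran from 0 to 2, and was 0 without wild-type replicate 1 or 2 or Clrn2-/- replicate 1. Eif2ak3, which encodes PERK, rose by 0.16 ± 0.0518 in Clrn2-/- mice (adjusted p = 0.0488), and Creb3l1, a membrane-bound relative of ATF6, rose by 0.49 ± 0.111 in Clrn1-/- (adjusted p = 0.0038) and 0.58 ± 0.111 in Clrn1-/-Clrn2-/- mice (adjusted p = 0.000631). Ern1, which encodes IRE1, rose by 0.25 ± 0.0830 in Clrn1-/- mice (adjusted p = 0.0373), and its value in Clrn2-/- mice was -0.02 (adjusted p = 0.899). Transcript levels do not measure the activity of these sensors. Of 17 tested genes outside the set whose promoter held an exact ERSE, 2 rose and 1 fell in Clrn1-/-, 5 rose and 1 fell in Clrn2-/-, and 4 rose and 2 fell in Clrn1-/-Clrn2-/- mice.

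Many genes of the PERK and ATF4 arm also rose in both genotypes without clarin-2. Of 20, 5 rose and 2 fell in Clrn1-/-, 12 rose and 1 fell in Clrn2-/-, and 14 rose and 0 fell in Clrn1-/-Clrn2-/- mice, with medians of 0.13, 0.36 and 0.36 on the log2 scale. The count of 5 in Clrn1-/- mice ran from 4 to 9 over the alternatives, and that of 12 in Clrn2-/- mice from 11 to 13. Chac1, which degrades glutathione, rose by 0.46 ± 0.156 (adjusted p = 0.0379), 1.65 ± 0.148 (adjusted p = 4.38e-06) and 1.03 ± 0.152 (adjusted p = 5.86e-05) in the 3 mutants. The stress-induced transcription factor Atf3 rose by 0.48 ± 0.108 (adjusted p = 0.00408), 1.45 ± 0.104 (adjusted p = 6.28e-07) and 1.99 ± 0.103 (adjusted p = 1.22e-09). Cebpb fell in Clrn1-/- (-0.395 ± 0.110, adjusted p = 0.0143) and Clrn2-/- mice (-0.689 ± 0.112, adjusted p = 0.000664). Atf4 itself measured 139, 130 and 141 CPM in wild-type and 141, 143 and 149 in Clrn1-/- libraries. It measured 183, 175 and 169 CPM in Clrn2-/- but 143, 160 and 144 in Clrn1-/-Clrn2-/- libraries. Ddit3, which encodes the transcription factor CHOP, measured 14.9, 15.0 and 15.5 CPM in wild-type, 13.0, 12.9 and 13.6 in Clrn1-/-, 21.9, 20.5 and 19.6 in Clrn2-/-, and 19.1, 19.4 and 20.1 CPM in Clrn1-/-Clrn2-/- libraries. It fell by 0.21 in Clrn1-/- (adjusted p = 0.0221) and rose by 0.45 in Clrn2-/- (adjusted p = 0.000152) and 0.37 in Clrn1-/-Clrn2-/- mice (adjusted p = 0.000174).

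**Figure D5:**
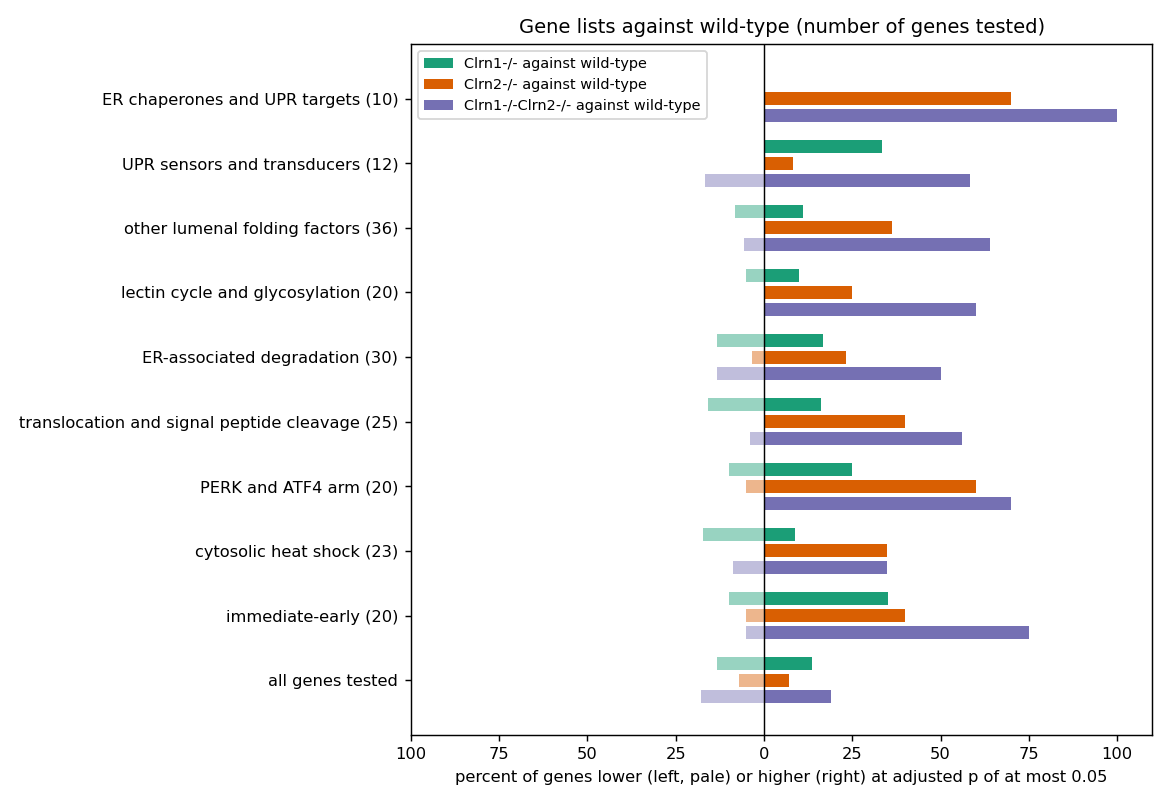
Percent of the genes of each list (x axis) that were higher (right) or lower (left, pale) than wild-type at an adjusted p of at most 0.05 in each mutant, with the number of genes tested in brackets and all genes tested at the bottom. The 10 ER chaperones and UPR targets reach 70% in Clrn2-/- and 100% in Clrn1-/-Clrn2-/- mice and have no bar in Clrn1-/- mice.

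Of 23 cytosolic heat shock genes, 2 rose and 4 fell in Clrn1-/-, 8 rose and 0 fell in Clrn2-/-, and 8 rose and 2 fell in Clrn1-/-Clrn2-/- mice. The count that rose in Clrn2-/- mice ran from 4 to 15 over the alternatives, with 5 without wild-type replicate 2, 4 without Clrn2-/- replicate 2 and 15 without Clrn2-/- replicate 3. That of Clrn1-/- mice was 1 without wild-type replicate 1 or Clrn1-/- replicate 1 or 2. The inducible HSP70 genes Hspa1a and Hspa1b, which are nearly identical copies so that the division of reads between them is uncertain, led in both. Hspa1b measured 10.2, 8.33 and 8.25 CPM in wild-type, 8.79, 9.21 and 9.01 in Clrn1-/-, 27.6, 34.6 and 16.5 in Clrn2-/-, and 35.2, 40.9 and 35.7 CPM in Clrn1-/-Clrn2-/- libraries, a change of 1.56 ± 0.187 (adjusted p = 5.89e-05) and 2.06 ± 0.185 (adjusted p = 3.86e-07) on the log2 scale. The list's summed level overlapped between wild-type, Clrn2-/- and Clrn1-/-Clrn2-/- libraries, with 7012 to 7221 CPM in wild-type, 6853 to 6933 in Clrn1-/-, 6903 to 8059 in Clrn2-/-, and 7071 to 7258 in Clrn1-/-Clrn2-/- libraries. Of 2 cold-inducible genes, Rbm3 rose in Clrn2-/- (0.33, adjusted p = 0.00382) and Clrn1-/-Clrn2-/- mice (0.45, adjusted p = 6.57e-05). Immediate-early genes, which respond within minutes to stimulation and to dissection, numbered 20, of which 7 rose and 2 fell with the loss of clarin-1, 8 rose and 1 fell with that of clarin-2, and 15 rose and 1 fell with that of both. The count of 8 was 5 without wild-type replicate 1 or Clrn2-/- replicate 3. Their sums ran from 727 to 775 CPM in wild-type, 762 to 814 in Clrn1-/-, 807 to 832 in Clrn2-/-, and 928 to 958 in Clrn1-/-Clrn2-/- libraries. The part of heat shock, cooling or handling in the levels of the 10 genes was not tested.

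Markers of several cell types differed between the genotypes too. Of 14 supporting cell markers, 9 rose and 3 fell in Clrn1-/-, 7 rose and 2 fell in Clrn2-/-, and 11 rose and 1 fell in Clrn1-/-Clrn2-/- mice, with sums of 3607 to 4054 CPM in wild-type, 4171 to 4715 in Clrn1-/-, 4311 to 5260 in Clrn2-/-, and 7149 to 7864 in Clrn1-/-Clrn2-/- libraries. Of 15 hair cell markers, 3 rose and 5 fell, 5 rose and 0 fell, and 7 rose and 3 fell in the same order, with sums of 3749 to 4271, 2931 to 3152, 3424 to 4038 and 2628 to 2862 CPM from wild-type to Clrn1-/-Clrn2-/- mice. Of 15 neuronal markers, 0 rose and 7 fell, 2 rose and 4 fell, and 3 rose and 10 fell. Of 10 macrophage markers, 8, 1 and 9 rose in the same order, with sums of 150 to 195, 242 to 261, 176 to 223 and 244 to 286 CPM. Of 10 fibroblast markers, 5 rose and 3 fell, 1 rose and 2 fell, and 6 rose and 2 fell. Their sums were 8280 to 10191, 6270 to 6863, 6133 to 6578 and 8447 to 9765 CPM. Of 10 bone and cartilage markers, 3 rose and 0 fell, 0 rose and 1 fell, and 4 rose and 1 fell. Their sums were 739 to 859, 1121 to 1311, 742 to 841 and 1130 to 1231 CPM. All 5 red blood cell genes fell in each mutant. Plasma and B cells, whose secretion needs much ER, had sums of 48.8 to 58.3, 58.2 to 74.8, 67.6 to 72.2 and 64.0 to 69.9 CPM, and of their 8 tested markers 2, 1 and 1 rose. The part of cell type shares in the levels of the 10 genes was not tested.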

How the data were processed

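Organs of Corti were dissected at P21 without stria vascularis and modiolus, and poly-A RNA was sequenced with a directional kit. The deposited values are raw counts per gene and library, made by the authors with STAR on GRCm38.p6 with the Gencode vM24 annotation (the STAR version is not given in the sources used here), with no normalization and no pooling of libraries. Of the 3 count columns, the one in the orientation of the kit was used, which held 95.2% to 95.6% of stranded counts. Reads not assigned to a gene (13.5% to 15.8%) were left out. Samples were grouped by the genotype label.

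Fits were made in edgeR 4.0.16 under R 4.3.3. Low genes were removed (filterByExpr, minimum count 10), libraries were scaled by TMM (factors 0.963 to 1.02), and all 12 were fitted together with genotype alone. Adjusted p-values are Benjamini-Hochberg values of the quasi-likelihood test over all 19052 genes, with thresholds of 0.05 and 1.5-fold. The common biological coefficient of variation was 6.15%. Averaged over the genes with more counts, replicates differed by 5.04 to 22.7 times the variance of counting. Abundant genes weigh most in this average. The part of counting error in the spread of single genes, such as Sdf2l1, was not measured. The depth per library, 30008679 to 41049302 counts, gave the 10 genes between 652 and 26554 counts each. CPM are TMM-scaled. Log2 CPM used a prior count of 2. Gene lengths and positions came from Gencode vM21 on the same build, and promoters from RefSeq.

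The 10 genes, the other lists and the tests were chosen with earlier results of these data known. The text names the 10 genes, up to 3 genes per direction of each pathway list with the largest change past the adjusted p against wild-type, and the 10 genes most like the mean of the set. Atf4 is named as well because a list is called after it. Alternatives were limma-voom (limma 3.58.1), DESeq2 1.42.0, its size factors, scaling by library size only, keeping low genes, the compared genotypes alone, unstranded counts, a replicate block and each library left out in turn. The labels number replicates from 1 to 3 in each genotype and do not say what a number stands for. Over 12453 genes, deviations of libraries with the same number correlated above 0.1 in 7 of 18 pairs (-0.277 to 0.301), and in all 3 pairs only for wild-type and Clrn1-/- (0.269, 0.126 and 0.105), so that the block is given beside that comparison.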

Additional observations from a re-analysis of the deposited data

Results flagged for a closer look

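The effect of clarin-2 loss on Creld2 and Herpud1 differed with the Clrn1 genotype, by the interaction term of edgeR. The interaction was 0.665 on the log2 scale for Creld2 (adjusted p = 0.00569) and 0.384 for Herpud1 (adjusted p = 0.0212). For Creld2, clarin-2 loss was measured at 0.26 with clarin-1 (not past the test) and at 0.92 without it. For Herpud1 the values were 0.16 (not past the test) and 0.55. Both had their lowest levels in Clrn1-/- mice. Over 19 alternatives the adjusted p of the interaction ran from 2.85e-11 to 0.0217 for Creld2 and from 7.98e-06 to 0.0738 for Herpud1. With 3 libraries per genotype, no test for extreme libraries was made, but each library was left out in turn.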

How the results depend on the processing

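Of the fold changes of the 10 genes in the 7 comparisons, 963 alternative values kept their direction and their side of the threshold, 30 lost the call, 25 gained one and 22 changed sign. Of the counts on the pathway lists, 672 stayed within 1.5 times and 102 moved further. In Clrn1-/-Clrn2-/- mice against wild-type and against Clrn1-/- mice all 10 calls held in each alternative. In Clrn1-/- mice against wild-type, where 0 genes passed, DESeq2 passed 1, no filter on low counts 3, the 2 genotypes alone 2, the replicate block 1, and the block with these genotypes alone 2, while leaving out a library passed 0. The interaction, with 2 genes, had 5 without the filter. With each library left out, the interaction gave 1 to 4 genes and 0 to 1 past 1.5-fold, Clrn2-/- against wild-type 1 to 3 past 1.5-fold, Clrn1-/- against Clrn2-/- 1 to 4 past 1.5-fold, Clrn1-/-Clrn2-/- against wild-type 3 to 5 past 1.5-fold, and Clrn1-/-Clrn2-/- against Clrn2-/- 1 to 5.

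The replicate block left the count of other comparisons within 1.5 times (8 in place of 7 for Clrn2-/- against wild-type, with Creld2 gained at 0.25, adjusted p = 0.0456). Outside wild-type and Clrn1-/-, libraries of a number share only that number.

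The values that changed sign were near 0 and past no threshold. Calr in Clrn1-/-Clrn2-/- against Clrn2-/- was -0.001 with DESeq2, its size factors and unstranded counts, -0.009 without the filter, and -0.047 to 0.026 with a library left out. Against wild-type in Clrn1-/-, Xbp1 was -0.002 without the filter and -0.022 to 0.034 with a library left out, Hsp90b1 was -0.039 with unstranded counts and -0.02 to 0.051 with a library left out, and Sdf2l1 was -0.009 to 0.085. With a library left out, the interaction was -0.023 to 0.173 for Hspa5 and -0.087 to 0.165 for Sdf2l1, and Sdf2l1 in Clrn1-/-Clrn2-/- against Clrn2-/- was -0.055 to 0.196. The cause was not tested in any of these. With 3 libraries per genotype, the spread between libraries limits what could be seen.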
